A study of Mus musculus with 2 samples.

Results

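Testicular macrophages were described from single-cell RNA of 1 wild-type (WT) and 1 Alkbh5 knockout (KO) mouse testis library. A barcode was taken as a macrophage when it held an RNA molecule of at least 3 of the 6 genes C1qa, C1qb, C1qc, Pf4, Csf1r and Adgre1. Barcodes with Leydig cell RNA (Insl3, Cyp17a1, Hsd3b1 and Cyp11a1 at 40 or more per 10000 molecules) or with at least 4 of 7 Sertoli cell genes (Aard, Rhox8, Cldn11, Cst9, Cst12, Defb19 and Defb36) were left out. This gave 93 of 12768 barcodes, 19 of 5756 from WT and 74 of 7012 from KO. Both libraries came from the testes of 12-week-old C57BL/6 mice. The KO animals were Alkbh5-/- offspring of heterozygous crosses, a knockout not confined to one cell type, and the WT animals were wild-type at this gene. The text of the study speaks of 1 animal per genotype in one place and of 3 in another, so a library may be a pool. With 1 library per genotype, no comparison of WT with KO has a replicate, and no test was made between them.

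Macrophages are phagocytes that live in the interstitium of the testis beside the Leydig cells and on the surface of the tubules around the peritubular cells. They are known for clearing debris, for the complement protein C1q, for chemokines that draw other leukocytes, and for holding immune responses to germ cells down. Some carry MHC class II, the molecules that present peptides to CD4+ T cells, while others carry little of it and more of scavenger receptors such as CD163 and the mannose receptor MRC1. ALKBH5 removes the methyl mark N6-methyladenosine from RNA.

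The unit of all values is the UMI, a tag that counts each captured RNA molecule once. The WT library held 80283221 UMIs and the KO library 82056760. The macrophage barcodes held 263938 UMIs in WT and 853520 in KO, with 5163 to 48277 UMIs per barcode in WT (median 7759) and 4902 to 37319 in KO (median 8778). Alkbh5 (chromosome 11, 60536381 to 60558512, GRCm38) had 607 UMIs over all WT barcodes and 5 over all KO barcodes. Within the macrophages it had 3 UMIs in WT and 0 in KO, which allows up to 4.32 CPM. The libraries shared 45 barcode sequences, and 0 of them was a macrophage. Levels are given as CPM, the UMIs of a gene per 1e6 UMIs of the macrophage barcodes, with exact Poisson 95% intervals. Shares have exact Clopper-Pearson 95% intervals. Log2 ratios, always KO over WT, carry an exact interval conditional on the total of both sums. All of these cover counting error only, and not the difference between animals or between cells.

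Macrophages made up 0.330% (0.199 to 0.515) of the WT barcodes and 1.06% (0.830 to 1.32) of the KO barcodes, a ratio of 3.20 (1.91 to 5.61). Other somatic cells were also a larger part of the KO library. Leydig barcodes, with at least 40 UMIs per 10000 of the 4 Leydig genes, numbered 76 for WT and 1081 for KO, and the ratio of shares was 11.7 (9.25 to 14.9). Sertoli barcodes were 73 and 577, a ratio of 6.49 (5.08 to 8.4). Set against Leydig barcodes, macrophages were fewer in KO, with 25 per 100 Leydig barcodes of WT and 6.85 per 100 of KO (ratio 0.274, interval 0.164 to 0.480). The share of macrophages among all barcodes and their number per Leydig barcode thus differed in opposite directions. A share depends on how many cells of every other type were captured, so more macrophages and fewer germ cells cannot be told apart from it.

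The members were chosen by the measured UMIs of the rule genes and of the excluding genes, so these levels are a description. C1qa, C1qb and C1qc encode the 3 chains of complement C1q, Pf4 a platelet-type chemokine, Csf1r the receptor for the macrophage growth factor CSF1, and Adgre1 the surface marker F4/80. All 6 genes were present in 11 of 19 WT members and in 22 of 74 KO members. Exactly 3 were present in 0 WT and 12 KO members. C1qb ran from 9 to 39 UMIs in the WT members (median 16) and from 1 to 62 in KO (median 10). C1qc ran from 8 to 33 UMIs in WT (median 19) and from 1 to 85 in KO (median 8). Both genes had a UMI in every member, and their ranges overlapped. Csf1r ran from 0 to 6 UMIs in WT (median 3) and from 0 to 11 in KO (median 1), and 42 of 74 KO members had any. The 6 genes together had a median of 87.2 UMIs per 10000 in WT members and 32.4 in KO members. Summed over the members they were 0.492% of all UMIs in WT and 0.358% in KO.

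**Figure D1:**
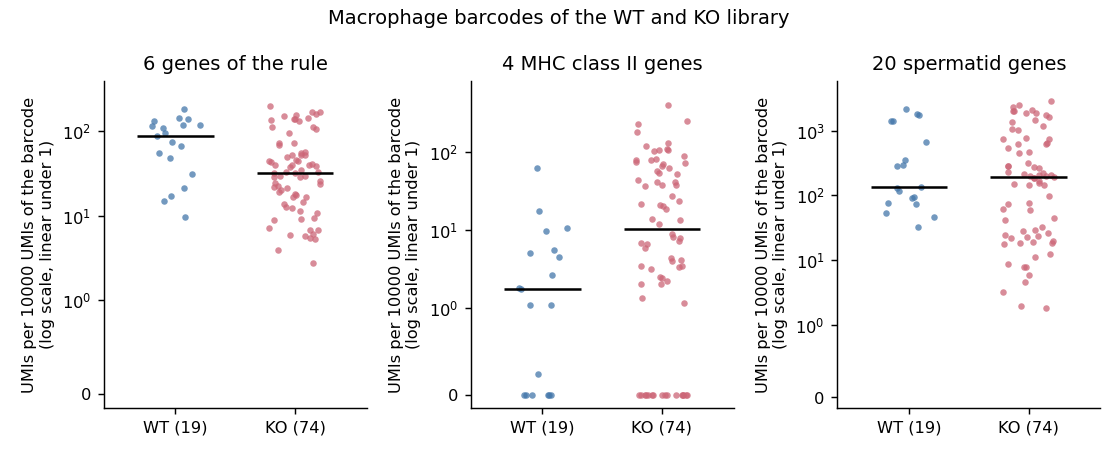
Each point is 1 macrophage barcode of the WT (19) or KO (74) library, and the black line is the median. The y axes give UMIs per 10000 UMIs of the barcode, on a log scale that is linear under 1, for the 6 genes of the rule, for Cd74, H2-Aa, H2-Ab1 and H2-Eb1, and for 20 spermatid genes. The medians of the rule genes were 87.2 in WT and 32.4 in KO, and those of the MHC class II genes 1.75 and 10.5.

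Near the threshold, the 12 KO members with 3 rule genes had 2.76 to 37.7 UMIs of these genes per 10000 (median 9.88), and 11 of them had a UMI of Lyz2. Just outside, with 2 rule genes and under both exclusion limits, lay 10 WT barcodes (0.538 to 5.45 per 10000, 2 with Lyz2) and 27 KO barcodes (0.696 to 14.7 per 10000, 13 with Lyz2). The WT library had no barcode with exactly 3 rule genes, so its members stood apart from the rest, while in KO the numbers ran on without a gap. The exclusions removed 0 WT and 12 KO barcodes, 4 by Leydig RNA and 8 by Sertoli genes.

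Myeloid markers outside the rule were checked next. Lyz2, the lysozyme of myeloid cells (chromosome 10, 117277331 to 117282321, GRCm38), had a UMI in 19 of 19 WT and 73 of 74 KO members. It ran from 7 to 83 UMIs in WT (median 55) and from 0 to 934 in KO (median 32.5). Its level was 3520 CPM in WT members and 4102 in KO members, against 0.900 and 8.02 CPM in all other barcodes. Tyrobp and Fcer1g, adaptors of activating receptors in myeloid cells, and the cathepsin Ctss had a UMI in all 19 WT members and in 67, 70 and 69 of the 74 KO members. Fcer1g was not particular to the members, since 6.85% of WT and 36.2% of KO Sertoli barcodes had a UMI (medians 10816 and 9347 UMIs). Tyrobp and Ctss had a UMI in 2.08% and 1.56% of KO Sertoli barcodes. Lyz2 reached 10 UMIs per 10000 in 18 of 19 WT and 55 of 74 KO members. By these markers most of the barcodes carried the RNA of macrophages, while some KO members had little of it. The genes of the rule differed in how far they were confined to members. In the WT library 20.01% of the C1qb UMIs and 69.6% of the Adgre1 UMIs lay in members, against 93.0% to 96.4% for the other rule genes. In KO the shares were 58.7% for C1qb, 54.3% for Adgre1 and 75.2% to 86.0% for the others. Lyz2 and its near-identical neighbour Lyz1 can share reads, and the counting of such reads was not stated.

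RNA of other cell types was present in the members. The list of 20 spermatid genes, led by the protamines Prm1 and Prm2 that pack sperm DNA, made up 8.36% of the WT member UMIs and 5.57% of the KO ones. It ran from 33.1 to 2142 UMIs per 10000 in WT members and from 1.84 to 2896 in KO members, and 5 of 19 WT and 15 of 74 KO members had at least 1000. Its part in the results was not tested, and results that moved in the 10 WT and 40 KO members under 200 per 10000, a limit chosen after the values had been seen, are given with both values. Leydig genes made up 0.0227% and 0.0581% of the UMIs and Sertoli genes 0.00568% and 0.0143%. Of 12 endothelial genes, 3 in WT and 4 in KO had UMIs, 11 and 24 in all, and the defining Pecam1, Cdh5, Emcn and Cldn5 were at 0 in both libraries. The B cell list had 45 and 62 UMIs, at most 7.75 per 10000 in a WT member and 8.19 in a KO member, while the defining Cd79a and Ms4a1 were at 0. Cd79b, also a defining gene, had UMIs in members of both libraries. In KO it had 2 in 1 member under 20 rule-gene UMIs per 10000 and 6 in 6 members at or above 20. Most of the list was Ighm, the heavy chain of IgM, with 40 UMIs in 16 of 19 WT members and 52 in 30 of 74 KO members. Ighm was called lower in KO at a log2 ratio of -1.31 (-1.94 to -0.68). The T and NK cell list had 20 and 93 UMIs, in 8 WT and 33 KO members and at most 5.32 and 13.96 per 10000. Of these Cd3d, a chain of the T cell receptor complex, had 10 UMIs in 4 WT members and 54 in 19 KO members, but Cd3e and Trac had 0 in WT and 1 each in KO, and Nkg7 0 in both. The dendritic cell list had 429 and 1173 UMIs, nearly all of Cst3, which macrophages also express. Its defining Flt3, Clec9a and Xcr1 had 0, 0 and 1 UMIs in WT and 1, 0 and 1 in KO, and Cd209a had 0 and 17. The monocyte list had 128 UMIs in 18 of 19 WT members and 204 in 53 of 74 KO members. The log2 ratio of these sums was -1.02 (-1.35 to -0.69). Of its genes Ccr2 had 0 and 4 UMIs and Ly6c2 0 and 0. The peritubular and fibroblast list had 9 UMIs in 7 WT members and 367 in 20 KO members. Of the KO UMIs 237 lay in 1 barcode, which held 115 of 119 UMIs of Acta2 and 60 of 68 of Myl9, genes of smooth muscle, and 130 lay in the rest. Dcn, a proteoglycan of fibroblasts, had 0 UMIs in WT and 77 in 7 KO members, 43 of them in another barcode. The part of these RNAs in the results was not tested. Scrublet, which scores likely doublets, called 0 WT and 5 KO members, and they were kept.

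Across genes, 5360 reached 20 UMIs over the WT and KO members and were seen in at least 25% of the members of either genotype. A gene was called higher or lower when its CPM differed at least 2-fold. By this size alone, 845 genes (15.8%) were higher in KO and 472 (8.81%) were lower, and these shares are the background for the counts of named groups. The median log2 ratio over the 6807 genes with at least 20 UMIs was 0.19, so a ratio of that size is the middle of all genes. Genes at least 4 times higher in members than in other barcodes numbered 419, of which 357 had the detection. In that group 24 were higher and 54 lower, with a median of -0.18 over the 419.

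MHC class II genes were higher in the KO members. Of the 10 genes of the list, 6 had at least 20 UMIs, and of these 4 were called higher (against 15.8% of all genes) and 0 lower, and the median log2 ratio was 2.09, or 3.5 in the members low in spermatid RNA, where H2-Eb1 had no WT UMI, and 1.49 in the members with at least 20 rule-gene UMIs per 10000. The higher ones were the chains of the peptide-binding dimers and their chaperone. Cd74, the invariant chain that escorts class II molecules (chromosome 18, 60803848 to 60812652), ran from 0 to 51 UMIs in the WT members (median 1) and from 0 to 181 in KO (median 7.5). It had 94 UMIs in WT and 1856 in KO, or 356 CPM (288 to 436) and 2175 CPM (2077 to 2276), and the log2 ratio was 2.61 (2.31 to 2.92). The ranges overlapped, and 8 WT and 18 KO members had no UMI of it. These genes were not confined to the members, which held 17.4% of the Cd74 UMIs of the WT library and 53.8% of those of the KO library, and 1.61% and 17.1% of those of H2-Ab1. Since 1 WT member held 51 of the 94 UMIs, the ratio was also taken without the highest member of each library, where it was 3.53.

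The alpha and beta chains of the dimers were higher too. H2-Aa (chromosome 17, 34282744 to 34287823) had 33 and 472 UMIs (log2 ratio 2.15, interval 1.63 to 2.70), and as 1 WT barcode held 21 of the 33 the ratio was 3.39 without the highest member of each library. H2-Ab1 (chromosome 17, 34257689 to 34269419) had 17 and 226 UMIs (log2 ratio 2.04, interval 1.33 to 2.84). H2-Eb1 (chromosome 17, 34305867 to 34316674) had 10 and 402 UMIs (log2 ratio 3.64, interval 2.74 to 4.71), but 9 of the 10 WT UMIs lay in 1 barcode. H2-Aa, H2-Ab1 and H2-Eb1 were found in 7, 6 and 2 of 19 WT members and in 43, 41 and 43 of 74 KO members. The median WT member had 0 UMIs of each, and the median KO member had 1 of each. When every member was thinned to 5291 UMIs, the share with a UMI of H2-Eb1 was 6.47% in WT (17 members deep enough) and 49.2% in KO (66 members), against 10.5% and 58.1% unthinned. In the barcodes that were neither macrophage, Leydig nor Sertoli, 0.662% of WT (median 10940 UMIs) and 1.84% of KO (median 9481.5 UMIs) had a UMI of H2-Eb1, which gives the background of free RNA and other cells.

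H2-DMa and H2-DMb1, the chains of the helper that loads peptides on class II, were not called. H2-DMa had 25 UMIs in WT and 82 in KO, which gave a log2 ratio of 0.02 (-0.64 to 0.73), and H2-DMb1 8 and 29 (log2 ratio 0.16, interval -1.0 to 1.5). Ciita, the master regulator of the class II genes, had 0 and 2 UMIs, too few at this depth for a ratio. The class I genes had a median log2 ratio of 0.07 and 1 of 6 genes called higher. Among them B2m, the light chain, had 284 UMIs in WT and 912 in KO, which gave a log2 ratio of -0.01 (-0.20 to 0.19).

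The promoters of the class II genes are known for a shared set of boxes, among them the Y box, an inverted CCAAT sequence bound by the factor NF-Y. The stretches around it are shown for 2 genes that were higher and 1 that was not, with the letters TGATTGG in capitals, 5′ to 3′ on the strand of the gene (RefSeq windows on GRCm38.p6 from 250 bases before to 50 bases after the start of the gene).
H2-Aa: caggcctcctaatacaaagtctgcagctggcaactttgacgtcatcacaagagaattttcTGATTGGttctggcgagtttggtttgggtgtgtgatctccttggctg
H2-Eb1: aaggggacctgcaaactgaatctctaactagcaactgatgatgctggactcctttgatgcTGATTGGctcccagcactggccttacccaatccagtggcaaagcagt
H2-DMb1: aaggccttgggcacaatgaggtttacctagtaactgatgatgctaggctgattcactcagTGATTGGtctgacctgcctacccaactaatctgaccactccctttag
These lie at chr17:34287827-34287933 (minus strand), chr17:34305746-34305852 (plus) and chr17:34153068-34153174 (plus), and the capitals begin 50, 61 and 63 bases before the start. TGATTGG or its reverse complement CCAATCA was found in 7.82% of 32851 promoter windows of the same length. The windows of Ccl8, Ccl12 and H2-DMa held neither. H2-Ab1 had no entry. A match of letters is a description and does not show that the box was used in these cells.

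**Figure D2:**
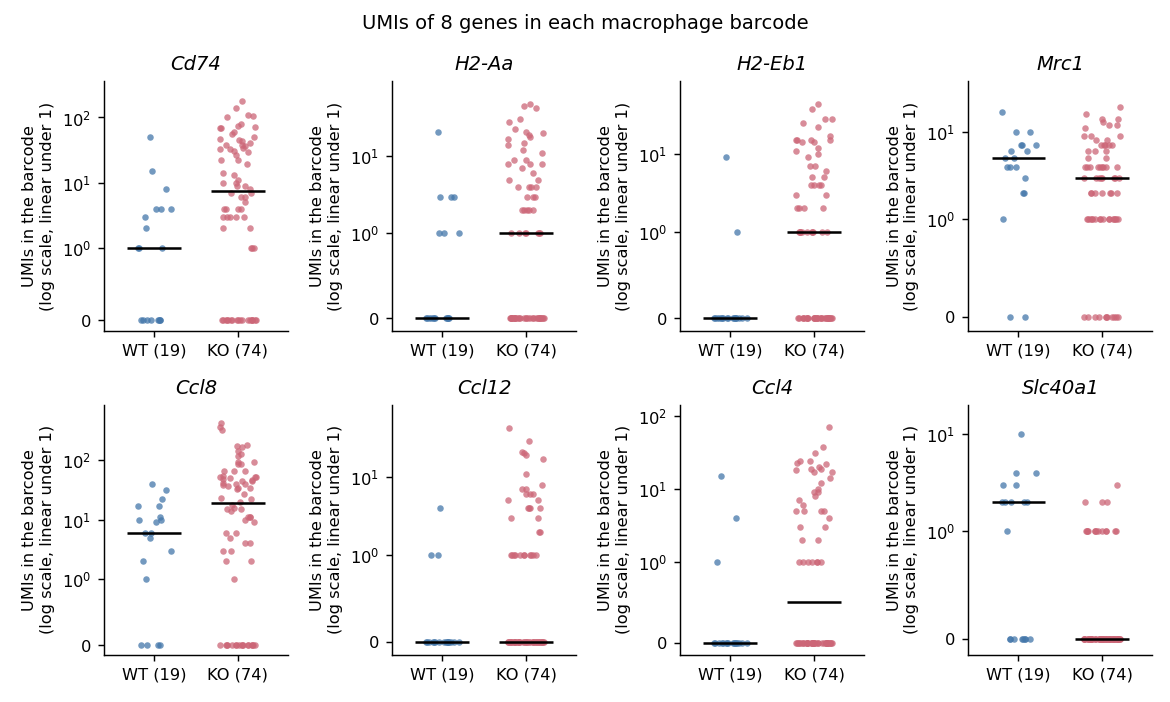
UMIs of 8 genes in each of the 19 WT and 74 KO macrophage barcodes, on a log scale that is linear under 1, with the median as a black line. Cd74, H2-Aa, H2-Eb1, Ccl8, Ccl12, Ccl4 and Mrc1 reached higher values in KO, which had more barcodes, than in any WT barcode. For Mrc1 the highest values were 19 UMIs in KO and 17 in WT. All 8 genes overlapped between the libraries, and Slc40a1 had no UMI in 57 of 74 KO members.

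The members of each library were not uniform in MHC class II. Cd74, H2-Aa, H2-Ab1 and H2-Eb1 together reached 10 UMIs per 10000 in 3 of 19 WT members, or 15.8% (3.38 to 39.6), and in 37 of 74 KO members, or 50% (38.1 to 61.9). The sum ran from 0 to 63.2 per 10000 in WT and from 0 to 411 in KO. It was 0 in 6 WT and 16 KO members, and 5 WT and 11 KO members lay between 5 and 20, close to the value that divided them. The class is therefore a range of 1 score and not a cell type. With the division at 5 per 10000 the shares were 31.6% and 59.5%, and at 20 they were 5.26% and 44.6%. Outside the members, 3 of 5737 WT and 23 of 6938 KO barcodes reached 10 per 10000.

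Within the KO library, the 37 members over this value were compared with the 37 under it. Their medians of the 6 rule genes were 34.9 and 31.9 UMIs per 10000. Mrc1 was present in 27 of the members over the value and in 36 of those under it, Lyz2 in 36 and 37, and Csf1r in 21 and 21. H2-DMa, with 58 UMIs over and 24 under the value, was higher over it by 1.46 (0.75 to 2.21) on the log2 scale. Cd83, a surface protein that stabilises class II on antigen-presenting cells, had 81 and 29 UMIs, higher by 1.66 (1.04 to 2.33). Trem2, a lipid receptor, had 52 and 113 UMIs, lower by a log2 difference of -0.94 (-1.44 to -0.45). Of the 113 UMIs under the value, 31 lay in 1 barcode, and the difference was not taken without it. Spermatid RNA had a median of 74.9 per 10000 over the value and 273 under it. The lists of cell type markers had Cd209a in 3 members over the value and 4 under it, and Ccr2 in 2 and 1.

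The KO members with little RNA of the rule genes more often had MHC class II RNA, a description with no test. Of the 24 KO members under 20 rule-gene UMIs per 10000, all 24 had a class II UMI and 15 reached 10 per 10000. Of the 50 at or above 20, 34 had a class II UMI and 22 reached 10. This division was chosen after the values had been seen. Among the 24 members Cd74 had 945 UMIs and H2-Eb1 223, against 911 and 179 in the other 50, whereas Lyz2 had 341 against 3160 and Apoe 183 against 2300. By CPM, the log2 difference of the 24 from the other 50 was 0.47 for Cd74 and 0.73 for H2-Eb1. Genes outside the class II list differed more, among them Nubp2 (50 and 8 UMIs, 3.06) and Ccdc39 (110 and 19, 2.95). Pabpc6 (128 and 26, 2.72) and Ccna1 (60 and 13, 2.62) did so too. The source of these RNAs was not tested. The 24 had a median of 12472.5 UMIs and 216 spermatid UMIs per 10000, and the other 50 had 7320.5 and 74.1. Of the 5 members called doublets, 4 were among the 24. Without these low members in either library (16 WT and 50 KO left) the log2 ratio of Cd74 was 1.72, that of H2-Aa 1.25, that of H2-Ab1 2.05 and that of H2-Eb1 2.66. The share over the value was then 18.8% (3 of 16) in WT and 44.0% (22 of 50) in KO.

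**Figure D3:**
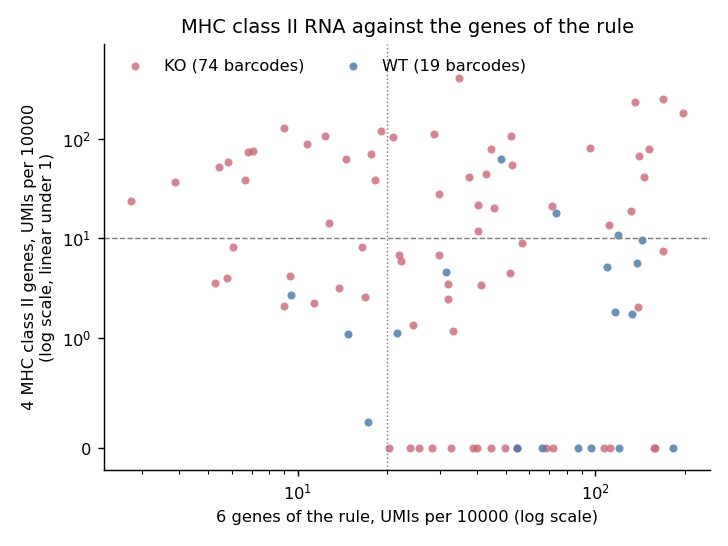
Each point is 1 macrophage barcode. The x axis gives UMIs of the 6 rule genes per 10000 on a log scale, and the y axis those of Cd74, H2-Aa, H2-Ab1 and H2-Eb1 per 10000 on a log scale that is linear under 1. The dashed line at 10 has 3 of 19 WT and 37 of 74 KO barcodes over it, and left of the dotted line at 20 all 24 KO barcodes had a class II UMI.

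Several chemokines of the CC family were also higher in KO. Of the 14 chemokines with at least 20 UMIs, 9 had the detection, and 4 of these were called higher and 0 lower. The median log2 ratio over the 14 was 1.52. These counts include Pf4, which belongs to the rule. Without it 8 of 13 chemokines had the detection, 4 were called higher and 0 lower, and the median was 1.52. Ccl8 (chromosome 11, 82115185 to 82116799), which draws monocytes and T cells, ran from 0 to 40 UMIs in the WT members (median 6) and from 0 to 434 in KO (median 19). It had 191 UMIs in WT and 3607 in KO, or 724 CPM (625 to 834) and 4226 CPM (4089 to 4366), and the log2 ratio was 2.55 (2.34 to 2.76). The share of members with a UMI was nearly alike, 15 of 19 in WT and 57 of 74 in KO, while the amount per barcode differed. The highest KO member held 12.0% of the UMIs.

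Ccl12, a neighbour of Ccl8 on chromosome 11 (82101845 to 82103400) and a ligand of the monocyte receptor CCR2, had 6 UMIs in WT and 246 in KO, which gave a log2 ratio of 3.66 (2.52 to 5.12). It was found in 3 of 19 WT and 34 of 74 KO members, with at most 4 UMIs in WT and 42 in KO. Ccl4 (chromosome 11, 83662584 to 83664683), an attractant of monocytes and T cells, had 20 and 460 UMIs (log2 ratio 2.83, interval 2.19 to 3.56), in 3 and 37 members. Ccl7 (chromosome 11, 82045712 to 82047525), another monocyte attractant, had 40 and 416 UMIs (log2 ratio 1.69, interval 1.22 to 2.19), in 3 and 33 members. The WT sums of Ccl4 and Ccl7 rested on 1 barcode, which held 15 of the 20 and 37 of the 40 UMIs. Without the highest member of each library the log2 ratios were 4.55 and 5.04, and in the members low in spermatid RNA they were 1.67 and -0.00, where Ccl7 was no longer called. At least 1 of Ccl12, Ccl7 and Ccl4 was found in 7 of 19 WT and 62 of 74 KO members, and all 3 in 0 and 8.

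Ccl8 in other barcodes was at 0.262 CPM in WT and 9.64 CPM in KO, with 80.5 CPM in KO Sertoli barcodes, which had a UMI in 3.99% of cases (median 9347 UMIs). The members held 90.1% of all Ccl8 UMIs of the WT library and 82.2% of those of the KO library. These levels outside the members were far below the 724 and 4226 CPM within them.

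The other chemokines varied. Ccl3, a chemokine related to Ccl4, had 87 and 262 UMIs (log2 ratio -0.10, interval -0.46 to 0.26), and 43 of the WT UMIs lay in 1 barcode. Ccl2 had 22 and 103 UMIs (log2 ratio 0.53, interval -0.14 to 1.27). Ccl24 had 24 and 66 (log2 ratio -0.23, interval -0.93 to 0.50). Cxcl2, a neutrophil attractant, had 23 and 189 UMIs (log2 ratio 1.35, interval 0.72 to 2.04), but it was found in 2 WT and 13 KO members and was not among the genes with the detection. Ccrl2, a receptor that binds chemerin, was called higher with 2 and 48 UMIs (log2 ratio 2.89, interval 0.96 to 5.98).

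Chemokine RNA was found on both sides of the MHC class II division. In KO, Ccl8 was present in 24 of the 37 members over 10 class II UMIs per 10000 and in 33 of the 37 under it. Its sums were 2056 UMIs over and 1551 under, a log2 difference of 0.59 (0.49 to 0.69). Of the 2056, 434 lay in 1 barcode and 363 in another, and of the 1551, 326 lay in 1 barcode. The difference was not taken without these barcodes. Ccl12 had 173 and 73 UMIs, higher over the value by 1.43 (1.02 to 1.84), while Ccl7 had 118 and 298, a log2 difference of -1.15 (-1.47 to -0.84). Of the low members described above, 13 of 24 had Ccl8, with 171 UMIs in all against 3436 in the other 50.

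**Figure D4:**
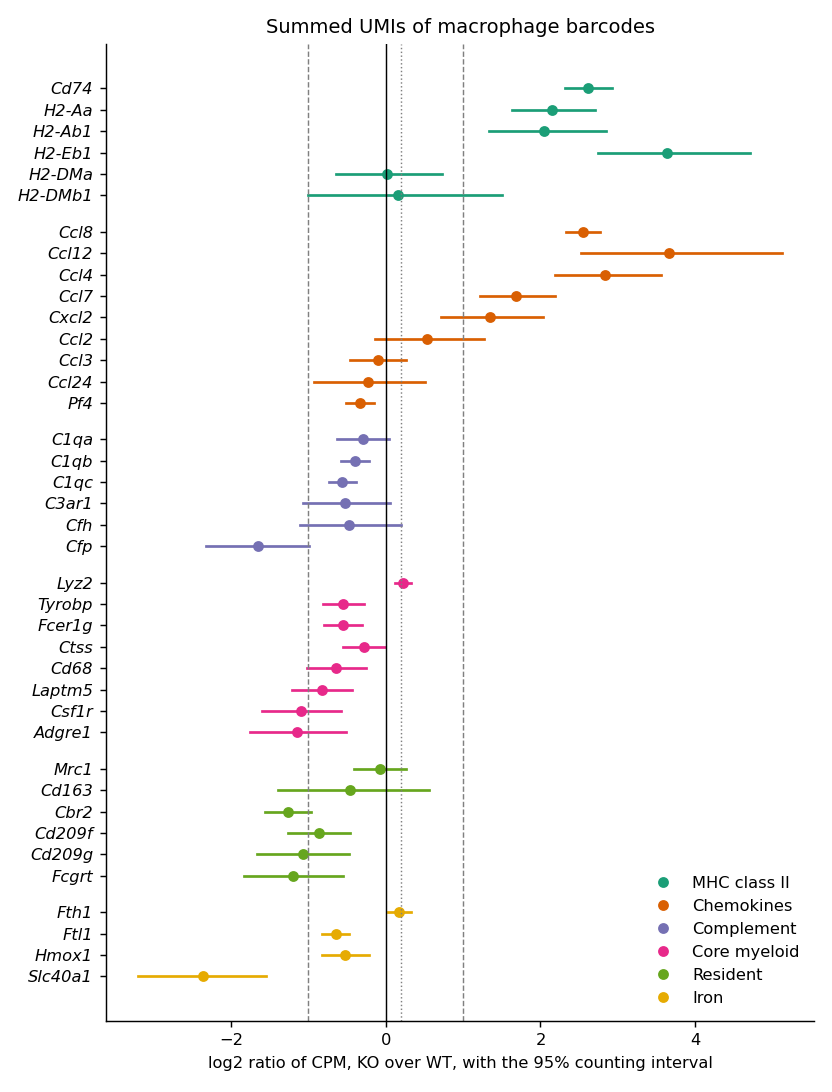
Log2 ratio of CPM, KO over WT, of summed UMIs in macrophage barcodes (points) with the 95% counting interval (lines), by gene group. Dashed lines mark a 2-fold difference and the dotted line the median of all genes, 0.19. Cd74, H2-Aa, H2-Ab1, H2-Eb1, Ccl8, Ccl12 and Ccl4 lay past 2 on the log2 scale, and Slc40a1 at -2.36 was the lowest.

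Inflammatory cytokines were sparse. Tnf had 2 UMIs in WT and 6 in KO, Il1b 3 and 27, Il6 0 and 0, and the anti-inflammatory cytokine Il10 7 and 10. Il1b, found in 2 of 19 and 16 of 74 members, had a log2 ratio of 1.48 (-0.22 to 3.84), an interval that includes 0. Of the 7 genes of inflammatory signalling with the detection, 1 was called higher (Ccrl2) and 2 lower, Tlr2 and Irak3. Tlr2, a receptor for bacterial lipoproteins, had 25 and 33 UMIs (log2 ratio -1.29, interval -2.09 to -0.48), but 10 of the 25 lay in 1 WT barcode, and without the highest member of each library the ratio was -0.81, short of 2-fold. The interferon response list had 0 of 9 genes higher and 1 lower, with a median of 0.22. Immediate early genes, which respond to tissue dissociation, had 0 of 21 higher and 1 lower with a median of -0.08. Fos had 371 and 1102 UMIs (log2 ratio -0.12, interval -0.29 to 0.05), and Jun 307 and 926 (log2 ratio -0.10, interval -0.29 to 0.09). The lower one was Klf2, which restrains inflammatory genes in myeloid cells, with 161 and 240 UMIs and a log2 ratio of -1.12 (-1.41 to -0.82).

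Most core myeloid genes had a lower CPM in KO, few of them by 2-fold. Csf1r and Adgre1 of this list belong to the rule, which admitted KO members with fewer rule genes, so their levels are a description. Of the other 22 genes, all with the detection, 19 had a lower CPM in KO, 3 were called lower (against 8.81% of all genes) and 1 higher, and the median log2 ratio was -0.55. Without the highest member of each library 2 of the 3 were no longer called. Over all 24 genes 5 were called lower, and the median was -0.57, or -1.46 in the members low in spermatid RNA. Csf1r, with 56 and 85 UMIs, had a log2 ratio of -1.09 (-1.59 to -0.58), and Adgre1, with 39 and 57, one of -1.15 (-1.76 to -0.52). As 19 of the 39 WT UMIs of Adgre1 lay in 1 barcode, its log2 ratio was -0.34 without the highest member of each library. The gene called higher was Mpeg1, the pore-forming perforin-2, with 5 and 53 UMIs and a log2 ratio of 1.71 (0.40 to 3.39), which was 0.98 in the members low in spermatid RNA. Cd68, a lysosomal marker, had 88 and 182 UMIs (log2 ratio -0.64, interval -1.02 to -0.26), short of 2-fold. In complement, 0 of 10 genes were higher and 2 lower, Cfp and Itgb2. Without C1qa, C1qb and C1qc, which belong to the rule, 0 of 7 were higher and the same 2 lower. Cfp, which encodes properdin, the stabiliser of the alternative pathway, had 40 and 41 UMIs and a log2 ratio of -1.66 (-2.32 to -0.99). C1qa, C1qb and C1qc had log2 ratios of -0.30, -0.40 and -0.56, a description only, since they belong to the rule.

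Genes of resident macrophages were divided. In that list 4 of 19 genes were called lower and 1 higher, with a median of -0.36, or -1.13 in the members low in spermatid RNA. Mrc1 ran from 0 to 17 UMIs in WT (median 5) and from 0 to 19 in KO (median 3), with 100 and 307 UMIs in all and a log2 ratio of -0.07 (-0.41 to 0.27). It was not particular to the members, since 43.2% of KO Sertoli barcodes (median 9347 UMIs) and 85.1% of KO members had a UMI. Cd163, the haemoglobin scavenger receptor, had 14 and 33 UMIs (log2 ratio -0.46, interval -1.40 to 0.56). Folr2 had 1 and 0 UMIs and Lyve1 had 0 in both libraries. Cbr2, a carbonyl reductase of resident macrophages, was lower with 168 and 226 UMIs (log2 ratio -1.27, interval -1.56 to -0.97), and so were the lectin Cd209g at -1.07 and the Fc receptor Fcgrt at -1.20. Cd209g was at -0.63 in the members with at least 20 rule-gene UMIs per 10000, and Fcgrt at -0.97 without the highest member of each library, both short of 2-fold. The gene called higher was Ltc4s, which makes leukotriene C4, with 6 and 43 UMIs and a log2 ratio of 1.15 (-0.09 to 2.67), which was -0.32 in the members low in spermatid RNA.

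The lowest ratio among macrophage genes was that of Slc40a1, which encodes ferroportin, the exporter of iron (chromosome 1, 45908068 to 45926523). It ran from 0 to 10 UMIs in the WT members (median 2) and from 0 to 3 in KO (median 0). It was found in 11 of 19 WT and 17 of 74 KO members, or in 43.3% and 12.6% after thinning, against 57.9% and 22.97% before it. Of the Sertoli barcodes 0 in WT and 5.89% in KO had a UMI. Its sums were 35 and 22 UMIs, which gave a log2 ratio of -2.36 (-3.20 to -1.55), and it lay between -3.50 and -2.11 under every alternative tried. In KO 18.97% of its 116 UMIs lay in members, against 89.7% of 39 in WT. Of the other genes of iron and haem handling, Hmox1, which breaks haem down, had 136 and 306 UMIs (log2 ratio -0.52, interval -0.82 to -0.22). As 45 of the 136 WT UMIs lay in 1 barcode, its log2 ratio was -0.04 without the highest member of each library. The ferritin chains Fth1 and Ftl1, which store iron, had log2 ratios of 0.18 (0.03 to 0.32) and -0.65 (-0.82 to -0.47). Of the 1833 KO UMIs of Fth1, 262 lay in 1 barcode. The Fth1 log2 ratio was -0.03 without that barcode, and 0.11 without the highest member of each library. In this list 2 of 13 genes were called lower and 1 higher.

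Among the macrophage-enriched genes with the lowest log2 ratios were also S100a6 (-2.09, 33 and 25 UMIs), Cfp, and the membrane protein Ms4a6d (-1.66, 39 and 40). Pepd, Bin1 and Ms4a6c were at -1.57, -1.55 and -1.53. For Ms4a6c 1 WT barcode held 16 of the 34 UMIs, and without the highest member of each library the ratio was -0.76, short of 2-fold. In absolute terms each of these had about as many UMIs in 19 WT members as in 74 KO members. Of the 10 macrophage-enriched genes with the highest CPM, Ccl8 and Cd74 were past 2-fold (log2 ratios 2.55 and 2.61) and the others were not. Among the others were Apoe, a lipid carrier, at a log2 ratio of -0.08 (-0.20 to 0.04), Wfdc17 at 0.28 (0.13 to 0.43) and Tmsb4x, an actin-binding peptide, at -0.53 (-0.63 to -0.43).

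Lists of phagocytosis, lysosome and lipid genes had medians between -0.21 and 0.04. Phagocytosis and scavenger receptors had 0 of 21 genes higher and 2 lower with a median of -0.20, lysosomal genes 1 of 34 higher and 2 lower with a median of -0.21, and lipid handling 2 of 14 higher and 0 lower with a median of 0.04. Repair and anti-inflammatory genes had 1 of 12 higher and 1 lower with a median of 0.29. The one that was higher was Cd9, a tetraspanin, with 1 and 46 UMIs. Of the 46 KO UMIs, 17 lay in 1 barcode, and without that barcode the log2 ratio was 3.18. Pattern recognition receptors had 0 of 5 higher and 1 lower. The writers, readers and erasers of N6-methyladenosine had 3 of 10 higher and 2 lower with a median of 0.68. The reader Ythdf2 had 4 and 44 UMIs (log2 ratio 1.77), and the demethylase Fto 18 and 28 (log2 ratio -1.06). In the members low in spermatid RNA these were 0.81 and -0.56, short of 2-fold.

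Groups of genes that every cell uses were higher in KO as well. Ribosomal protein genes had a median log2 ratio of 0.70 with 24 of 81 higher, and mitochondrially encoded genes one of 0.68 with 3 of 10 higher. Heat shock genes had a median of 1.08 with 6 of 11 higher. Among these Hspe1, a mitochondrial chaperone, had 6 and 163 UMIs (log2 ratio 3.07, interval 1.92 to 4.54). Its level in other barcodes was 33.0 CPM in WT and 218 CPM in KO. The largest ratios over all genes with at least 50 UMIs and the detection belonged to genes also found in other barcodes, and higher there in KO. Ptgds, a prostaglandin D synthase, had 0 and 61 UMIs, with 163 and 3533 CPM in other barcodes, and Hells, a chromatin remodeller, 1 and 135 UMIs. Hells was at 21.8 and 113 CPM in other barcodes. The part of free RNA from other cells in these differences was not tested.

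One KO barcode stood apart from the other members. It held 10872 UMIs, of which 934 were Lyz2, 26.7% of all Lyz2 UMIs of the 74 members. It also held 254 of 276 UMIs of Retnla, a secreted protein of alternatively activated macrophages, all 14 of Arg1, the arginine-degrading enzyme, 22 of 23 of Gpnmb, 17 of 18 of Spp1, 17 of 23 of the glucan receptor Clec7a and 73 of 108 of Ccl6. It had 62 UMIs of C1qb and 85 of C1qc, but 0 of Csf1r, 1 of Mrc1 and 1.84 spermatid UMIs per 10000, and it had 8 UMIs of Cd74 and 0 of H2-Aa. Without it, the log2 ratio of Lyz2 was -0.21 in place of 0.22, and that of Cd74 2.62 and of Ccl8 2.56. Arg1 and Retnla were at 0 in the 19 WT members, and with 14 and 254 UMIs from 1 cell they do not describe the other KO members. Another KO barcode held 480 of the 571 UMIs of Cxcl13, the B cell attractant, which was found in 4 KO and 0 WT members.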

How the data were processed

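Single-cell libraries of 1 WT and 1 Alkbh5 KO testis were used as deposited. The authors deposited UMI counts per gene and barcode, not normalized, in 1 table per library. The submitters' processing notes name featureCounts 1.6.2, the aligner STAR 2.5.3a and FastQC 0.11.7. The methods of the study name a human genome and annotation, while the tables hold mouse gene symbols, and whether strand was used in counting was not given in the sources used here. The libraries held 5756 and 7012 barcodes with at least 5142 and 4792 UMIs.

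Members were chosen by the rule given at the start, and the members and gene lists were chosen with earlier results of these data known. UMIs were summed over members and divided by their total (CPM). Genes needed 20 UMIs over the WT and KO members together and a UMI in 25% of the members of either genotype, and a 2-fold difference was a size and not a test. Genes were named when they belonged to a list and had 20 UMIs, or were among the 8 largest and 8 smallest ratios or the 10 highest CPM of genes 4 times higher in members, or among the 5 largest and 5 smallest ratios of all genes with 50 UMIs and this detection. Other genes are named where counts of 1 barcode turned on them, or where they differed most in the low KO members, after their values were seen. Shares after thinning came from 5291 UMIs per barcode, and shallower members were left out. Scrublet (scanpy 1.11.5) marked likely doublets, and these were kept. Positions are those of GRCm38. Python 3.11.15, numpy 2.4.6 and scipy 1.17.1 were used. The sums were tested on simulated data for KO against WT, where of 5948 genes all 200 genes changed 4-fold were past 2-fold, and so were 5.20% of the unchanged genes, by counting error alone. The changed genes were drawn only from genes with well over 20 expected UMIs, so their recovery does not cover sparse genes. Counts were Poisson from 1 shared profile, without the spread between barcodes seen in the data. The cell filter by which the study reached its cell numbers was not repeated. Some genes that the naming rule selects are not reported here.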

Additional observations from a re-analysis of the deposited data

How the results depend on the processing

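The share of macrophage barcodes stayed higher in KO under every alternative tried, with ratios from 2.57 to 3.72. No paired analysis was possible because each genotype had 1 library and the labels give no shared replicate numbers, and no library could be left out. Depth limits genes with few UMIs, for which the counting interval spans several-fold. In place of 845 genes higher in KO there were 360 at 3-fold, 1381 with detection in 10% of members and 497 with at least 50 UMIs. In place of 472 lower genes there were 128 at 3-fold, 246 with at least 50 UMIs, 303 in members with at least 20 rule-gene UMIs per 10000, and 305 in members under 200 spermatid UMIs per 10000. Of the 303 lower genes 171 were shared with the main call, and of the 305 only 50 were. The higher genes in these 2 sets of members were 621 and 983, of which 438 and 433 were shared with the main call. Higher genes were 64.2% of those called, 76.3% in the members under 200, 71.3% with detection in 10% and 73.8% at 3-fold. With each member weighted equally 714 were higher and 429 lower, of which 561 and 236 were shared with the main call. The limits of 200 and 20 were chosen after the values had been seen.

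In the members under 200 the median log2 ratio of all genes was 0.39 and the list medians moved to -1.46 for core myeloid genes, -1.25 for complement, 3.5 for MHC class II, -0.82 for MHC class I, -1.13 for resident macrophage, -1.25 for inflammatory signalling, -0.60 for repair, -0.90 for interferon, -0.93 for immediate early, -0.79 for phagocytosis, -0.83 for lysosome, -1.50 for iron, -0.68 for pattern recognition and 0.16 for spermatid genes. MHC class II was at 1.49 in members with at least 20 rule-gene UMIs. Pattern recognition was at -0.60 with equal weights and at -0.73 with at least 50 UMIs. Of 64 named genes called 2-fold higher or lower, 4 changed sign under an alternative, all under 200, which were Ccl7 (-0.00374), Ltc4s (-0.32), Cypt4 (0.16) and Rnf151 (0.97), and the cause was not tested. Only 55 of the 64 had a value under 200. Of the 218 named genes that were not called, 99 changed sign under an alternative, 64 of them under 200, where 210 had a value. Among the alternative values of named genes, 1941 stayed within the counting interval, 274 moved out of it and 4 reversed.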
